A study of Danio rerio with 9 samples.

Results

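The genes described here encode the factors that build ribosomes in the nucleolus. A list of 60 gene symbols was matched to the symbols of the deposited count table, and 58 of its 24614 genes matched. One further listed gene, utp4, stands in that table under its older symbol cirh1a and was kept with the wider set described at the end, and brix1 had no matching symbol. All 58 genes passed the filter on low counts, which kept 17031 genes. By role, 8 encode box C/D and H/ACA particle proteins and their chaperone, 27 small-subunit processome and late small-subunit factors, 16 large-subunit assembly factors, 4 RNA polymerase I subunits, and 3 other nucleolar proteins.

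RNA polymerase I transcribes the precursor of the large ribosomal RNAs. Box C/D particles place ribose methyl groups on this precursor and H/ACA particles convert uridines to pseudouridine, both guided by small nucleolar RNAs. The small-subunit processome folds and cleaves the leading part of the precursor, while a separate series of factors assembles the large subunit, and both subunits mature further on the way to the cytoplasm. Embryos that grow fast make many ribosomes, and the genes of this machinery are known for strong expression in dividing tissue.

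The libraries held polyadenylated RNA from whole zebrafish embryos injected with a morpholino, an antisense oligonucleotide that blocks translation or splicing of its target. There were 3 libraries from embryos given the eif5a1/2 morpholino, 3 from embryos given the dhps morpholino and 3 from embryos given a control morpholino. Collection was at 24 hours, which the design text counts from fertilization and the protocol from the treatment. eIF5A is a translation factor that carries the unusual amino acid hypusine, and dhps encodes deoxyhypusine synthase, the enzyme of the first step of hypusine formation, so the design sets loss of the factor beside loss of its modification. The labels give neither the strain, the morpholino sequences and doses, nor the number of embryos pooled per library, and they do not say whether the libraries came from separate injections, so p-values measure the spread between these libraries, which may be technical. A whole embryo is a mix of tissues, so more RNA per cell and more cells of a type cannot be told apart; 26 of 33 markers of embryonic tissues reached at least 1 TPM in every library.

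Total counts ran from 15952644 to 17482536 per library. The eif5a transcript stood at 213 to 238 CPM in eif5a1/2 libraries, 1055 to 1116 CPM in dhps libraries and 1168 to 1467 CPM in control libraries, where CPM is the count relative to the scaled size of the library. It fell in eif5a1/2 against control, with a log2 fold change of -2.59 (edgeR adjusted p = 0.000209). The eif5a2 transcript did not pass the test: it stood at 147, 283 and 209 CPM in eif5a1/2 libraries, 415, 369 and 417 CPM in dhps libraries and 252, 368 and 215 CPM in control libraries, with a log2 fold change of -0.38 for eif5a1/2 against control (edgeR adjusted p = 0.729). The dhps transcript stood at 14.1 to 15.5 CPM in eif5a1/2 libraries, 8.27 to 10.3 CPM in dhps libraries and 13.0 to 15.7 CPM in control libraries, and its log2 fold change in dhps against control was -0.62 (edgeR adjusted p = 0.0508). The libraries also differed in a way the groups do not share. In the 3 dhps libraries, eif5a1/2 replicate 2 and control replicate 2, long transcripts had relatively more reads; in the other 4 libraries, short transcripts had more. The slope of log2 deviation on log2 length was 0.0399 to 0.141 in the first set and -0.123 to -0.0607 in the second. All dhps libraries lie on one side, so this difference and the dhps morpholino cannot be fully told apart, and values restricted to the first set are given beside calls and beside values that they moved most. In that restricted set the eif5a1/2 and control groups have 1 library each, so its tests rest on the spread of the 3 dhps libraries and assume that the single libraries vary like them.

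Levels of different genes were compared in TPM, which corrects for transcript length. The highest means were those of npm1a, fbl and ncl. npm1a encodes nucleophosmin, a histone and ribosomal protein chaperone of the nucleolus, and stood at 291, 535 and 409 TPM in eif5a1/2 libraries, 702, 594 and 659 TPM in dhps libraries and 289, 434 and 250.1 TPM in control libraries. fbl encodes fibrillarin, the methyltransferase of box C/D particles, and averaged 288 ± 80.5 TPM in eif5a1/2, 502 ± 26.2 TPM in dhps and 277 ± 58.8 TPM in control libraries (SD, n = 3 each). ncl encodes nucleolin and averaged 225 ± 133 TPM in eif5a1/2, 317 ± 9.26 TPM in dhps and 173 ± 62.3 TPM in control libraries. The lowest means were those of utp20 and utp18, processome factors at 4.78 TPM each over the 9 libraries, and of polr1b, the second largest RNA polymerase I subunit, at 6.38 TPM. The wide ranges in the eif5a1/2 and control groups came from replicate 2 of each, which was the highest library of its group for npm1a, fbl and ncl alike.

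**Figure D1:**
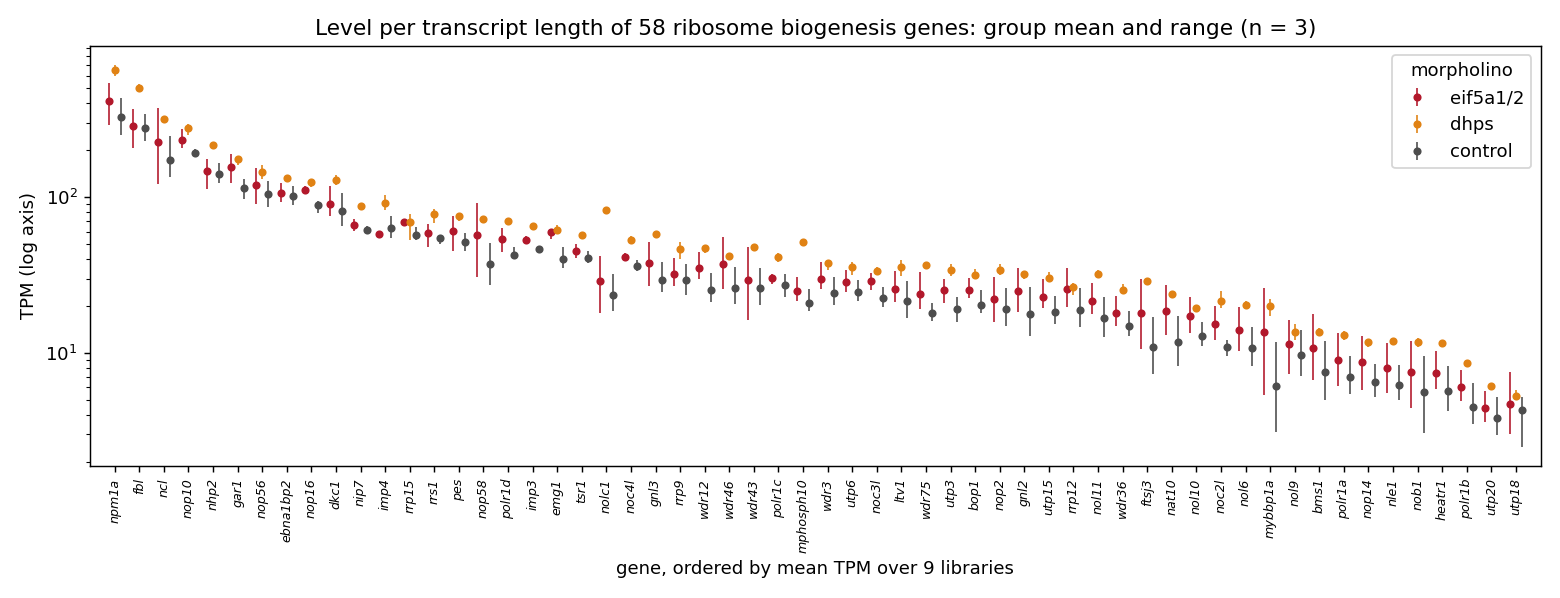
Level of each of the 58 genes in TPM (log axis), ordered by the mean over 9 libraries, with points at the group mean and bars from the lowest to the highest of 3 libraries (red, eif5a1/2; orange, dhps; dark grey, control). npm1a is the highest at a mean of 462.5 TPM. The dhps bar lies wholly above the control bar for 54 of the 58 genes, as for 39.8% of all genes tested.

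In TPM, 54 of the 58 genes were higher in every dhps library than in any control library and none was lower, beside 39.8% and 1.61% of all genes tested. The 4 exceptions were utp18, rrp12, rrp15 and nol9. Every eif5a1/2 library was above every control library for 6 of the 58 genes and below for none, beside 4.63% and 1.34% of all genes, and below every dhps library for 24 and above for none, beside 13.2% and 2.51% of all genes. TPM is a share of all transcripts, and the 80 cytoplasmic ribosomal protein genes took 17.4 to 27.6% of the reads in eif5a1/2 libraries, 18.6 to 20.4% in dhps libraries and 21.1 to 30.0% in control libraries. TPM sums to the same total in each library, so a smaller share of one list goes with larger shares elsewhere, and the part of this in the 54 genes was not tested. The 58 genes together took 0.686 ± 0.114% of the reads in eif5a1/2 libraries, 0.918 ± 0.0397% in dhps libraries and 0.606 ± 0.0746% in control libraries (SD, n = 3 each). The lowest dhps library, at 0.874%, lay above the highest control library, at 0.691%, and above the highest eif5a1/2 library, at 0.811%. The tests that follow used counts under TMM scaling, which set the median log2 fold change of all genes close to 0 in each comparison.

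With the dhps morpholino, 2 of the 58 genes rose against control: nolc1, the chaperone of box C/D and H/ACA particles, and ftsj3, a methyltransferase of large-subunit ribosomal RNA. None fell. Across all genes tested, 1.29% were called, 0.611% higher and 0.681% lower. The other 56 did not pass the test, although 19 of the 58 had every dhps library above every control library in CPM and none had the reverse, beside 15.2% and 15.7% of all genes. At an unadjusted p under 0.05, 17 of the 58 were higher and 0 lower, beside 8.11% and 11.4% of all genes. The median log2 fold change of the 58 genes was 0.12, beside 0.0026 over all genes, and 40 of the 58 were positive, beside 50.2% of all genes. The number called depended on the method: limma-voom called 2 (1.21% of all genes), DESeq2 10 (5.3%), edgeR with a length-slope covariate 21 (5.78%), all higher, and edgeR without control replicate 2 and eif5a1/2 replicate 2 called 17 higher and 1 lower (37.1%). That last fit leaves every dhps library with a positive slope and every other library with a negative slope. Slope and dhps morpholino cannot be told apart in it.

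nolc1 (NCBI Gene 561131) encodes Nopp140, which moves between the nucleolus and Cajal bodies and binds both classes of small nucleolar particle. It had 131, 151 and 153 CPM in eif5a1/2 libraries, 322, 360.1 and 352 CPM in dhps libraries and 146, 144 and 152 CPM in control libraries. The dhps libraries stood clear of the other 6. Of these, the positive-slope libraries were eif5a1/2 replicate 2 at 151 CPM and control replicate 2 at 144 CPM, 1 library in each group. The part of the length slope was not tested. Against control the dhps fold was 2.34, a log2 fold change of 1.23 ± 0.12 (SE, edgeR adjusted p = 0.00172), and within the positive-slope libraries it was 1.26 (edgeR adjusted p = 0.00131). The call was kept when any of the 9 libraries was left out.

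No other gene of the box C/D and H/ACA class passed the test in dhps against control. The class of 8 had a median log2 fold change of 0.041, with 7 positive. Among the box C/D core proteins, nop58 had 146, 217 and 180.1 CPM in eif5a1/2 libraries, 179.9, 209 and 200.2 CPM in dhps libraries and 155, 150.3 and 147 CPM in control libraries. Its dhps libraries were all above control, with a log2 fold change of 0.38 ± 0.15 (edgeR adjusted p = 0.226). fbl, the enzyme of the same particle, had 476, 426 and 523 CPM in eif5a1/2 libraries, 605, 684 and 723 CPM in dhps libraries and 590, 497 and 601 CPM in control libraries. The dhps values of fbl were also all above control, by a narrow margin (edgeR adjusted p = 0.349). In nop56, the remaining listed core gene, the dhps and control libraries overlapped. It had 279.6, 350.4 and 379 CPM in dhps libraries and 353, 315 and 338 CPM in control libraries. The H/ACA core proteins, dkc1 (the pseudouridine synthase), gar1, nhp2 and nop10, had a median of 0.006. In none of the 4 did the dhps and control libraries separate. In control replicate 2, the positive-slope control library, gar1, nhp2 and nop10 had 168, 143 and 81.4 CPM, below all their dhps libraries. The lowest dhps values were 174, 164 and 96.04 CPM. dkc1 had 248 CPM in that control library, within its dhps range of 239 to 305 CPM. The part of the length slope in the median of 0.006 was not tested.

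**Figure D2:**
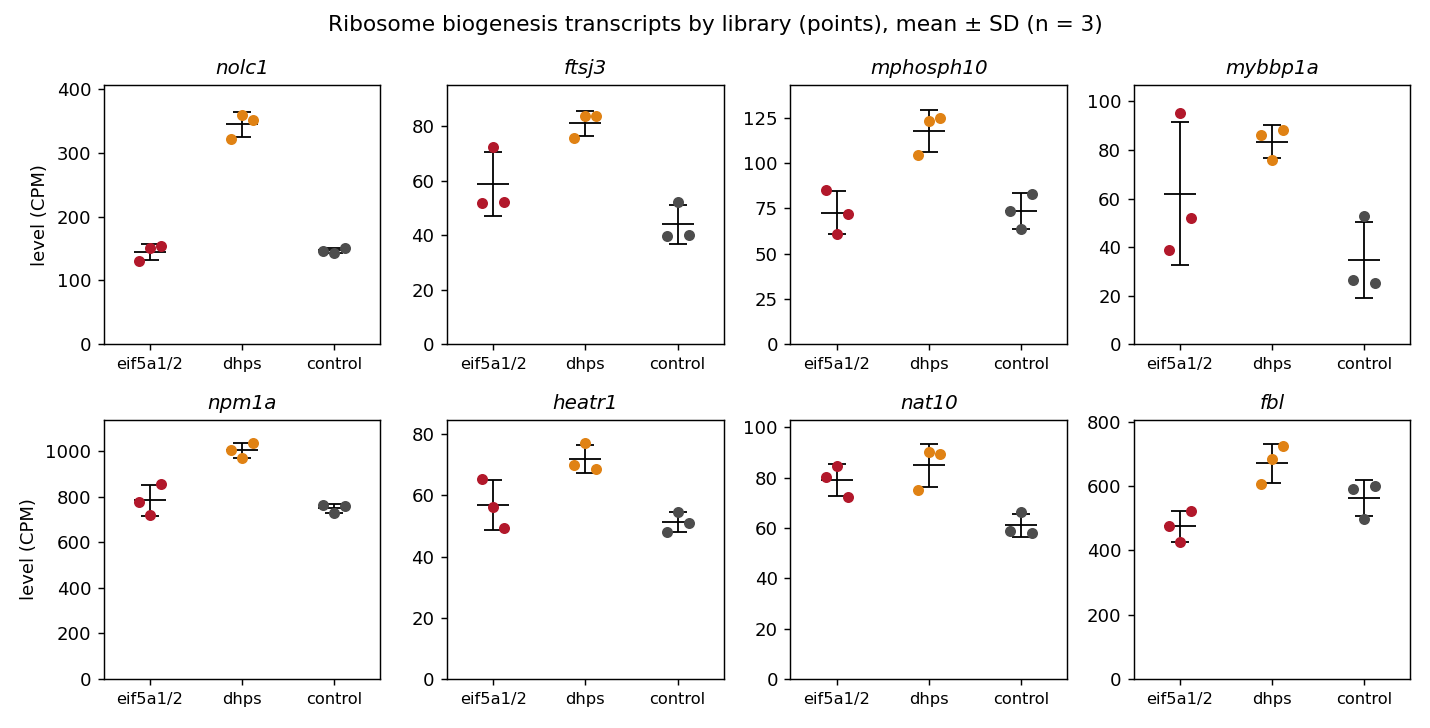
Level of 8 genes in CPM in each library, with the mean and SD of 3 libraries (axes start at 0; red, eif5a1/2; orange, dhps; dark grey, control). nolc1 lies at 322 to 360.1 CPM in dhps libraries and at 131 to 153 CPM in the 6 others, while mybbp1a overlaps between eif5a1/2 and both other groups.

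ftsj3 (NCBI Gene 321247), known as Spb1 in yeast, had 51.7, 72.5 and 52.0 CPM in eif5a1/2 libraries, 75.7, 83.6 and 83.8 CPM in dhps libraries and 39.5, 52.1 and 40.2 CPM in control libraries. In each of the eif5a1/2 and control groups replicate 2 was the highest. Its dhps fold against control was 1.84, a log2 fold change of 0.88 ± 0.17 (edgeR adjusted p = 0.0385). This call was kept in 3 of the 9 fits that leave out a library, those without eif5a1/2 replicate 1, eif5a1/2 replicate 2 or control replicate 2, and the adjusted p in the other 6 ran from 0.0692 to 0.191. Among the positive-slope libraries the log2 fold change was 0.63 (edgeR adjusted p = 0.0521), and ftsj3 was itself one of the genes whose 5 positive-slope libraries all lay above the other 4.

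The rest of the large-subunit class was divided. Its 16 genes had a median of 0.024, 9 of them positive. The nucleolar GTPases gnl3 (nucleostemin) and gnl2 had log2 fold changes of 0.37 ± 0.11 and 0.29 ± 0.13 (edgeR adjusted p = 0.144 and 0.253), which were 0.47 and 0.14 within the positive-slope libraries, and nle1, the Notchless homologue that acts in the release of assembly factors, had 0.37 ± 0.096 (edgeR adjusted p = 0.109). nle1 was at 24.8, 26.2 and 24.5 CPM in eif5a1/2 libraries, 29.6, 30.8 and 33.0 CPM in dhps libraries and 23.5, 23.6 and 25.3 CPM in control libraries, so its dhps values were above all others. The complex of pes (pescadillo), bop1 and wdr12 had a median of 0.025. In control replicate 2, these 3 genes had 133, 81.4 and 64.2 CPM, below all their dhps libraries. Their lowest dhps values were 139, 91.6 and 82.7 CPM. The part of the length slope in this median was not tested. By contrast rrs1, ebna1bp2, rrp15 and nop16, which act in early large-subunit assembly, all had negative values with a median of -0.20, and none of the 4 separated the groups. ebna1bp2, rrp15 and nop16 were among the 5 genes lower in all 5 positive-slope libraries than in the other 4. In control replicate 2, the positive-slope control library, rrs1 and nop16 had 74.7 and 64.4 CPM, below their dhps libraries. Those stood at 77.0, 108 and 103 CPM for rrs1 and 67.9, 85.9 and 82.9 CPM for nop16. ebna1bp2 and rrp15 had 119 and 59.4 CPM there, within their dhps ranges of 110 to 130 and 42.0 to 68.1 CPM. The part of the length slope in the negative values was not tested. The class median was larger among the positive-slope libraries, as given below.

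None of the 27 small-subunit genes passed the test, and their median log2 fold change was 0.14 with 18 positive. The one nearest the threshold was mphosph10, a protein that works with the U3 particle in the processome. It had 85.2, 61.0 and 72.0 CPM in eif5a1/2 libraries, 104, 123 and 125 CPM in dhps libraries and 73.6, 63.5 and 83.2 CPM in control libraries. The dhps libraries were above all 6 others, with a log2 fold change of 0.68 ± 0.16 against control (edgeR adjusted p = 0.0777). Among positive-slope libraries this was 0.88 (edgeR adjusted p = 0.0151), where mphosph10, nolc1 and wdr75 were the 3 of the 58 genes called, beside 1.25% of all genes.

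Within that class the medians of the listed genes differed between subcomplexes. Further processome genes, cirh1a (utp4), pwp2h and tbl3, were in the wider set and are not in these medians. Their log2 fold changes for dhps against control in the authors' deposited table were 0.20, 1.04 and 0.093. pwp2h had 57.4, 51.7 and 59.5 CPM in dhps libraries and 20.7, 42.5 and 18.6 CPM in control libraries. The UtpA genes heatr1, utp15, wdr43, wdr75 and nol11, whose products bind the precursor first and also act in its transcription, were positive in 5 of 5 with a median of 0.37. heatr1 had 65.4, 56.2 and 49.3 CPM in eif5a1/2 libraries, 69.9, 77.0 and 68.8 CPM in dhps libraries and 48.1, 54.7 and 51.1 CPM in control libraries, a log2 fold change of 0.49 ± 0.13 for dhps against control (edgeR adjusted p = 0.109). The dhps libraries of heatr1 were all above control. The UtpB genes utp6, utp18, wdr3 and wdr36 had a median of -0.016, and the U3 particle genes rrp9, imp3, imp4 and mphosph10 one of -0.0032. Relative to the control mean, the UtpA, UtpB and U3 medians were -0.036, -0.15 and -0.22 in control replicate 2, the positive-slope control library. In dhps libraries they were 0.23, 0.38 and 0.42 for UtpA, -0.22, 0.14 and 0.085 for UtpB, and -0.24, 0.084 and 0.18 for U3. The part of the length slope in these medians was not tested. nat10, the acetyltransferase of small-subunit ribosomal RNA, had 80.1, 84.8 and 72.2 CPM in eif5a1/2 libraries, 74.9, 90.2 and 89.5 CPM in dhps libraries and 58.8, 66.2 and 57.9 CPM in control libraries. It was above control in all libraries of both other groups, with log2 fold changes against control of 0.37 ± 0.12 for eif5a1/2 (edgeR adjusted p = 0.375) and 0.48 ± 0.12 for dhps (edgeR adjusted p = 0.105). nol6, another processome protein, gave 0.35 ± 0.095 for dhps against control (edgeR adjusted p = 0.118).

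**Figure D3:**
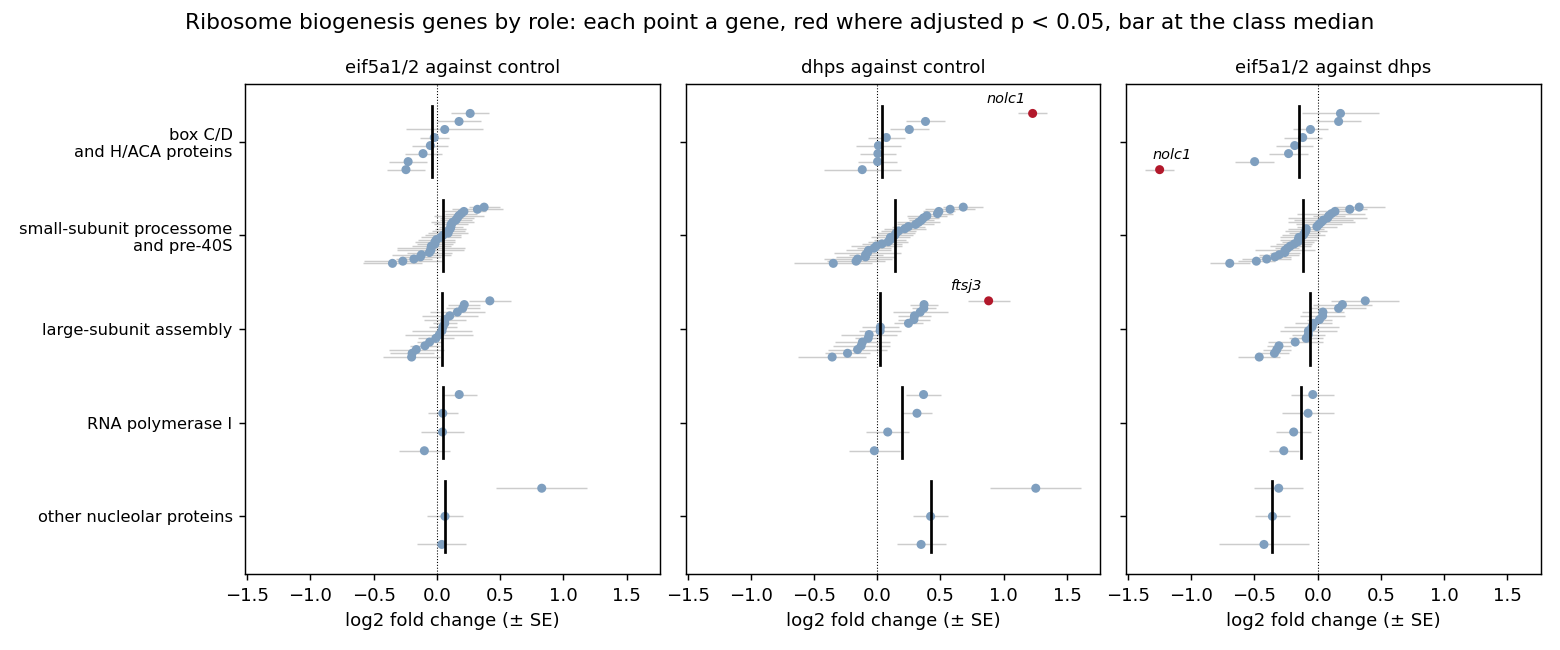
Log2 fold change (± SE) of each of the 58 genes in 3 comparisons, grouped by role, with a bar at each class median and red for an edgeR adjusted p under 0.05. Red points are nolc1 and ftsj3 in dhps against control, at 1.23 and 0.88, and nolc1 in eif5a1/2 against dhps, at -1.25; no gene is red in eif5a1/2 against control.

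The catalytic core of RNA polymerase I, listed here as polr1a and polr1b, was higher in every dhps library than in any control library without passing the test. polr1a, its largest subunit, had 61.9, 68.2 and 60.6 CPM in eif5a1/2 libraries, 65.5, 82.1 and 82.0 CPM in dhps libraries and 61.3, 60.4 and 62.9 CPM in control libraries, a log2 fold change of 0.31 ± 0.12 for dhps against control (edgeR adjusted p = 0.210). polr1b, the second largest, gave 0.37 ± 0.14 (edgeR adjusted p = 0.208). polr1c and polr1d, which RNA polymerase III also uses, had a median of 0.030. In control replicate 2, the positive-slope control library, polr1c and polr1d had 41.3 and 23.0 CPM, below all their dhps libraries. Their lowest dhps values were 42.0 and 28.6 CPM. The part of the length slope in this median was not tested. Further subunit genes, polr1e, twistnb (polr1f), cd3eap (polr1g) and znrd1 (polr1h), were in the wider set. Their log2 fold changes for dhps against control in the authors' deposited table were -0.15, 0.26, -0.23 and -0.33. In control replicate 2, polr1e, twistnb and znrd1 had 56.5, 7.76 and 8.86 CPM, below all their dhps libraries, and cd3eap had 22.1 CPM, within its dhps range. Of the 3 other nucleolar proteins, all had dhps libraries above all control libraries. npm1a stood at 776, 718 and 856 CPM in eif5a1/2 libraries, 1005, 969 and 1036 CPM in dhps libraries and 763, 726 and 758 CPM in control libraries, with a log2 fold change of 0.42 ± 0.14 for dhps against control (edgeR adjusted p = 0.172). mybbp1a, a nucleolar protein that binds transcription regulators and takes part in precursor processing, had 38.9, 95.1 and 52.0 CPM in eif5a1/2 libraries, 86.1, 75.7 and 88.4 CPM in dhps libraries and 26.2, 52.9 and 25.4 CPM in control libraries. Replicate 2 of the eif5a1/2 and control groups stood far above its fellows. The log2 fold change of mybbp1a for dhps against control was 1.25 ± 0.36 (edgeR adjusted p = 0.135), and within the positive-slope libraries it was 0.65 (edgeR adjusted p = 0.0546).

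The authors' deposited table of dhps against control gave a q-value under 0.05 for 9 of the 58 genes, all higher, beside 4.86% of the genes in that table. In the authors' deposited table these 9 were nolc1, ftsj3, mybbp1a, mphosph10, npm1a, heatr1, nat10, nop58 and nol6.

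The 2 knockdowns differed from each other in 1 of the 58 genes. nolc1 was lower in eif5a1/2 than in dhps libraries by a log2 fold change of -1.25 ± 0.12 (edgeR adjusted p = 0.000778), and this call was kept when any of the 9 libraries was left out. Across all genes tested, 1.77% were called, 0.934% higher and 0.84% lower. In CPM, every eif5a1/2 library was below every dhps library for 13 of the 58 genes and above for 1, rrp12, beside 10.1% and 10.8% of all genes. The median was -0.11, beside 0.00028 over all genes, and 17 of the 58 genes were positive, beside 50% of all genes. At an unadjusted p under 0.05, 12 were lower and 0 higher, beside 6.19% and 8.34% of all genes. limma-voom called 1 gene (1.73% of all genes), DESeq2 6 (4.76%), edgeR within the positive-slope libraries, where eif5a1/2 is 1 library, 6 (3.25%), and with a length-slope covariate 17 (9.87%), all lower. Without control replicate 2 and eif5a1/2 replicate 2, edgeR called 4 higher and 9 lower (28.8%), in a fit where slope and dhps morpholino cannot be told apart. Since the dhps libraries enter this comparison and the previous one, the values of the 2 are not independent.

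Among the other genes with the smallest p in eif5a1/2 against dhps, none passed the test over all 9 libraries. mphosph10 had a log2 fold change of -0.69 ± 0.16 (edgeR adjusted p = 0.0661), which was -0.97 within the positive-slope libraries (edgeR adjusted p = 0.00739). fbl had -0.50 ± 0.15 (edgeR adjusted p = 0.157) and -0.68 within the positive-slope libraries (edgeR adjusted p = 0.0350), with its highest eif5a1/2 library at 523 CPM and its lowest dhps library at 605 CPM. wdr43, an UtpA protein, had 78.0, 115 and 92.0 CPM in eif5a1/2 libraries, 127, 135 and 138 CPM in dhps libraries and 108, 105 and 111 CPM in control libraries, and a log2 fold change of -0.48 ± 0.14 (edgeR adjusted p = 0.148), against -0.24 within the positive-slope libraries (edgeR adjusted p = 0.336). Of the 3 eif5a1/2 values of wdr43, 2 lay below all control values and the other above them. nop2, a methyltransferase of large-subunit ribosomal RNA, had -0.34 ± 0.12 (edgeR adjusted p = 0.214), and ftsj3 had -0.46 ± 0.16 (edgeR adjusted p = 0.231), against -0.19 within the positive-slope libraries (edgeR adjusted p = 0.464). heatr1 and nol6 had -0.34 and -0.24, and nle1 and gnl3 -0.31 and -0.32. polr1a and polr1b had -0.27 and -0.19, and npm1a and ncl -0.36 and -0.31. Within the positive-slope libraries ncl was 0.018. Class medians were -0.15 for the box C/D and H/ACA proteins, -0.11 for small-subunit genes, -0.059 for large-subunit genes, -0.13 for RNA polymerase I and -0.36 for the other nucleolar proteins. In the authors' deposited table, nolc1 and mphosph10 were the 2 of the 58 genes with a q-value under 0.05, both lower, beside 2% of the genes in that table.

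With the eif5a1/2 morpholino, none of the 58 ribosome biogenesis genes passed the test against control. edgeR called 0 of 58, beside 0.153% of all genes (0.0646% higher and 0.0881% lower). DESeq2, limma-voom and the authors' deposited table also called 0, beside 1.21%, 0.117% and 0.287% of all genes. edgeR called 1 gene without control replicate 2 and eif5a1/2 replicate 2 (mybbp1a, beside 1.03%), 4 with a length-slope covariate (emg1, ftsj3, mybbp1a and nat10, beside 4.69%) and 0 within the positive-slope libraries (0.405%), where the comparison is 1 library against 1. At an unadjusted p under 0.05, 3 were higher (nat10, ftsj3 and mybbp1a) and 0 lower, beside 4.23% and 4.8% of all genes. The median log2 fold change was 0.046, beside 0.013 over all genes, 34 of the 58 were positive, beside 52% of all genes, and the class medians lay between -0.036 and 0.064. Groups did not overlap for 4 genes, nat10, rrp12 and nol6 above control and nop2 below it, beside 5.78% and 6.65% of all genes. A p above the threshold does not show that these genes were equal, and the median SE of their log2 fold changes was 0.16.

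nolc1 was nearly level in this comparison, at -0.02 ± 0.12. imp4, a U3 particle protein, had the lowest value, -0.35 ± 0.24 (edgeR adjusted p = 0.729; -0.77 within the positive-slope libraries, edgeR adjusted p = 0.120), which came mainly from eif5a1/2 replicate 2 at 47.8 CPM, with the other 2 at 97.0 and 78.1 CPM and the control libraries at 99.8, 80 and 104 CPM. mybbp1a had the highest, 0.83 ± 0.36 (edgeR adjusted p = 0.535). For this pair of groups the replicate numbers were treated as pairing the libraries in the block fits below, and not in the main test. The labels give no pairs, and the rule drew on these same data. eif5a1/2 replicate 1 correlated more with control replicate 3 (0.597) than with control replicate 1 (0.403). With the 2 groups fitted alone and the number as a block, mybbp1a was called at a log2 fold change of 0.82 (edgeR adjusted p = 0.00800). It was higher in 3 of 3 same-numbered pairs, and 2.21% of all genes were called in that fit. No other gene of the 58 was called there. With the block over all 9 libraries, 0 of the 58 were called, beside 0.0822% of all genes. mybbp1a was also among the genes higher in all 5 positive-slope libraries, which include replicate 2 of both groups.

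**Figure D4:**
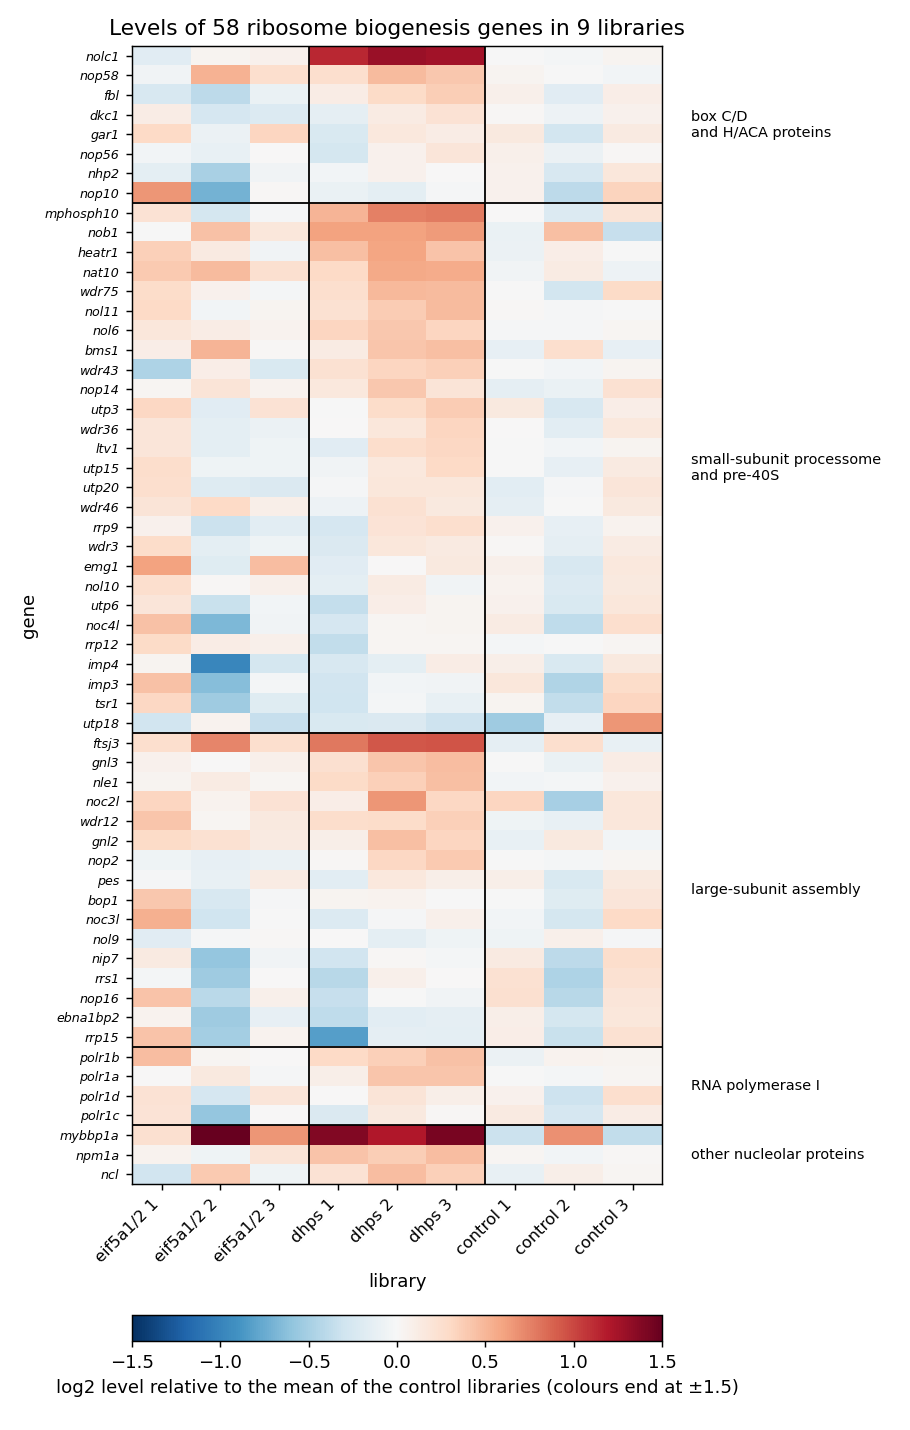
Log2 level of each of the 58 genes (rows, by role and then by dhps against control) in each library, relative to the mean of the 3 control libraries; red is higher, blue lower, and colours end at 1.5 in both directions. The nolc1 row is red in dhps libraries alone, while mybbp1a is also red in eif5a1/2 replicates 2 and 3, at 1.53 and 0.66, and control replicate 2, at 0.69.

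The genes also varied within groups. The per-library median of the 58 genes relative to the control mean was 0.20, -0.098 and 0.0095 in eif5a1/2 libraries, -0.0027, 0.20 and 0.24 in dhps libraries and 0.0067, -0.12 and 0.13 in control libraries. The groups overlapped on this measure, and the SD between replicates, pooled over the groups, was 0.135. This SD is that of single libraries, while the median of 0.12 in dhps against control compares groups of 3 libraries. The 2 are not on the same scale, and the median was not tested against this spread. Over the 9 libraries the SD of log2 level had a median of 0.215 for the 58 genes, beside 0.312 for all genes tested.

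Part of this variation ran with transcript length. Across the 58 genes, the log2 fold change of dhps against control was larger for longer transcripts (Pearson r = 0.54, Spearman rho = 0.58, as a description over 58 genes of the same libraries), beside a rho of 0.30 over all genes. The 29 longest had a median of 0.34 and the 29 shortest one of 0.0051. Between the 5 positive-slope libraries and the other 4, 5 of the 58 genes did not overlap and were higher (bms1, nob1, ftsj3, ncl and mybbp1a), 5 were lower (nop10, imp3, ebna1bp2, rrp15 and nop16), and 8.62% in each direction stood beside 15.5% and 14.8% of all genes. nolc1 was in neither set: its 5 positive-slope libraries spanned 144 to 360.1 CPM and the 4 others 131 to 153 CPM. Among the positive-slope libraries the median of dhps against control was 0.29, beside 0.018 over all genes, with class medians of 0.30 for box C/D and H/ACA proteins, 0.23 for small-subunit genes, 0.28 for large-subunit genes, 0.32 for RNA polymerase I and 0.46 for the other nucleolar proteins.

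**Figure D5:**
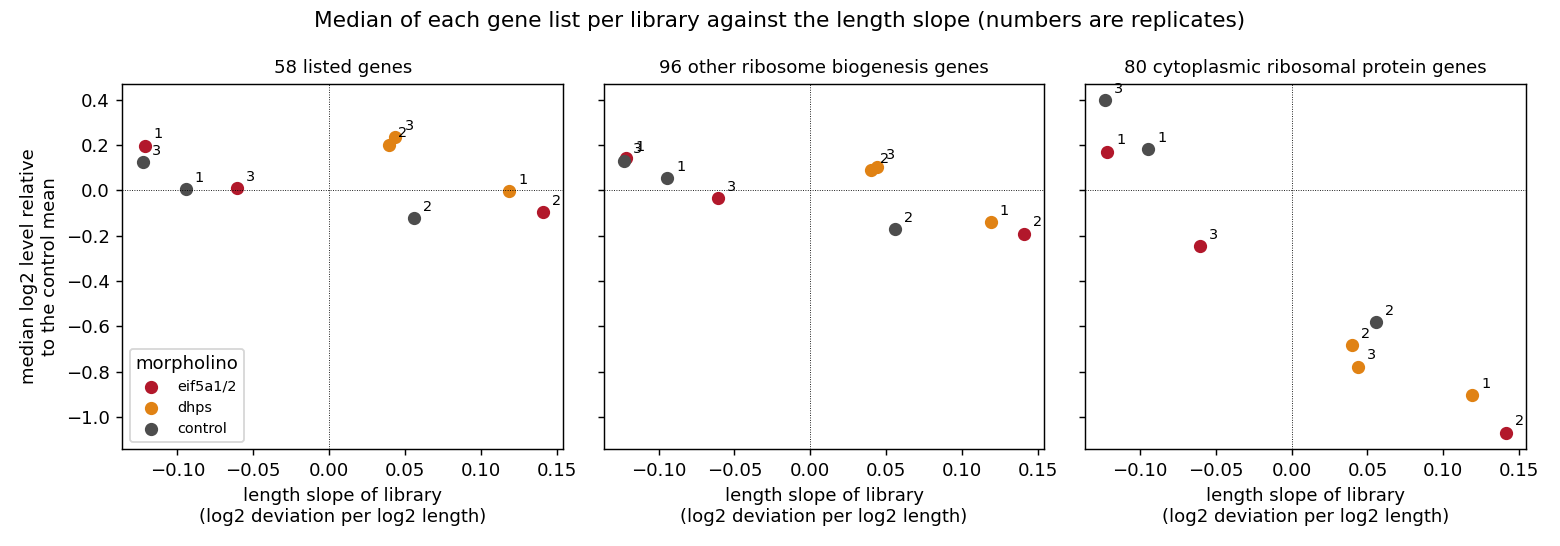
Median log2 level of 3 gene lists in each library, relative to the control mean, against the library's length slope (red, eif5a1/2; orange, dhps; dark grey, control; numbers are replicates). The 80 ribosomal protein genes fall steeply from left to right, down to -1.07 in eif5a1/2 replicate 2, while the 58 listed genes stay between -0.12 and 0.24.

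A wider set of 96 further ribosome biogenesis genes, tested in the same fit, held 1 gene past the threshold in dhps against control and the same gene in eif5a1/2 against dhps, a share near the 1.29% and 1.77% of all genes called in these comparisons, so it is described as a gene and not as a result of the set. rrn3 encodes TIF-IA, the factor that readies RNA polymerase I for initiation. It had 19.2, 20.4 and 17.8 CPM in eif5a1/2 libraries, 31.2, 31.4 and 36.1 CPM in dhps libraries and 17.0, 21.1 and 17.4 CPM in control libraries. As with nolc1, the dhps libraries stood above the other 6. The log2 fold change was 0.83 ± 0.12 for dhps against control (edgeR adjusted p = 0.0133) and -0.78 ± 0.12 for eif5a1/2 against dhps (edgeR adjusted p = 0.0157). These calls were kept in 4 and in 5 of the 9 fits without a library. Most of these fits left out a library of the group outside the comparison. Of the compared libraries, the call in dhps against control was kept only without control replicate 2. In eif5a1/2 against dhps it was kept only without eif5a1/2 replicate 1 or without eif5a1/2 replicate 2. Among the positive-slope libraries the log2 fold changes were 0.64 and -0.72. The other 95 genes did not pass the edgeR test in any comparison. The medians of the 96 were -0.011 for eif5a1/2 against control, 0.0074 for dhps against control and -0.012 for eif5a1/2 against dhps. The authors' deposited table of dhps against control gave a q-value under 0.05 for 5 of the 96 higher, rrn3 among them. It gave 3 lower, pno1, ddx55 and rsl24d1, beside 4.86% of the genes in that table. For eif5a1/2 against dhps it gave 0 higher and 2 lower (2%), and for eif5a1/2 against control 0 (0.287%).

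The factors assemble ribosomal proteins with ribosomal RNA. Of the 80 cytoplasmic ribosomal protein genes, edgeR called 0 in eif5a1/2 against control. It called 1 lower in dhps against control and 1 higher in eif5a1/2 against dhps. The shares of all genes called were 0.153%, 1.29% and 1.77%. At an unadjusted edgeR p under 0.05, 0 of the 80 passed in eif5a1/2 against control, beside 9.02% of all genes. In dhps against control 64 were lower and 0 higher, beside 11.4% and 8.11% of all genes. In CPM, 67 of the 80 were lower in every dhps library than in any control library, beside 15.7% of all genes. In eif5a1/2 against dhps, 3 were higher and 0 lower at that p, beside 8.34% and 6.19%. The 80 genes had median log2 fold changes of -0.35 in eif5a1/2 against control, -0.85 in dhps against control and 0.48 in eif5a1/2 against dhps. They also followed the length slope of the libraries. Within the positive-slope libraries their medians relative to the control mean were -1.07 in eif5a1/2 replicate 2, -0.90, -0.68 and -0.78 in the dhps libraries and -0.58 in control replicate 2, so there eif5a1/2 lay below dhps, the reverse of the value over all libraries. For 11 proliferation genes the medians were 0.10, -0.15 and 0.21 in the same comparisons, and none was called.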

How the data were processed

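Polyadenylated RNA of 9 whole-embryo libraries was measured by sequencing. The authors deposited expected counts and TPM per gene, per the file headers; between 91.4% and 93.9% of the counts were whole numbers (tolerance 1e-06). Further deposited tables hold the authors' own log2 fold changes, p-values, q-values and −log10 q-values, as deposited. The build was GRCz11, per the submitters' processing notes; the aligner, counter, annotation and strand setting (and the authors' test) were not given in the sources used here, so reads of overlapping genes cannot be told apart.

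Expected counts were rounded and tested with edgeR 4.0.16 in R 4.3.3 (filterByExpr, TMM scaling, robust quasi-likelihood fit of all 9 libraries in 3 groups, leaving 6 residual degrees of freedom). Adjustment was by Benjamini-Hochberg across the 17031 genes, and a gene was called at an adjusted p under 0.05. The genes tested held at least 99.84% of the reads. The common biological coefficient of variation was 0.225. DESeq2 1.42.0, limma-voom (limma 3.58.1), other scalings and filters, a replicate block, libraries left out and corrections for transcript length were alternatives; the code was tested on simulated counts. Length was taken per gene from reads per TPM. Library figures in log2 use a prior count of 2.

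The genes and lists were chosen with earlier results of these data known, so no list was tested. Named genes are all called ones, those with the smallest p per role (up to 4 in each subunit class and 2 in the others), and the 3 highest and 3 lowest by TPM. Others (wdr75, nob1, bms1, rrp12 and those of small subgroups) were named after their values were seen. Of 24614 gene IDs, 22941 were in the NCBI table of assembly GRCz12tu, and 12 symbols of the wider lists were matched by ID; gene positions were not used. Same-numbered eif5a1/2 and control libraries deviated together (correlations of 0.403, 0.760 and 0.318), so by the rule used, each above 0.1, these numbers were taken to pair the libraries. Only the fits with a replicate block used these pairs, and the main test did not. Some different numbers also correlated above 0.1 (eif5a1/2 1 with control 3 at 0.597, eif5a1/2 3 with control 1 at 0.260), so the rule does not single out same-numbered pairs. Values were centred within each group of 3 libraries, so these correlations are not independent. The labels give no shared batch.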

Additional observations from a re-analysis of the deposited data

Results flagged for a closer look

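nolc1 differed between the 2 knockdowns by a test of the difference itself, with a log2 fold change of -1.25 in eif5a1/2 against dhps (edgeR adjusted p = 0.000778, lower in 3 of 3 eif5a1/2 libraries than in any dhps library). Both groups are set against the same control libraries, where eif5a1/2 gave -0.02 and dhps 1.23. rrn3, of the wider set, differed in the same way, with -0.78 in eif5a1/2 against dhps (edgeR adjusted p = 0.0157), and with 0.05 in eif5a1/2 and 0.83 in dhps against control. No other gene of the 58 or of the 96 passed this test.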

How the results depend on the processing

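nolc1 was called in both comparisons that hold dhps under each of 21 alternatives at the 0.05 threshold, with log2 fold changes of 1.06 to 1.59 in dhps against control and -1.43 to -1.15 in eif5a1/2 against dhps; ftsj3 was called in 13 of 21 for dhps against control. The number of the 58 genes called moved more. For dhps against control (2), it was 1 at an adjusted p under 0.01 (0.376% of all genes). It was 3 with the stricter filter (1.65%) and with the length trend removed (2.67%). DESeq2 gave 10 (5.3%) and the length slope as covariate 21 (5.78%). Without control replicate 2 and eif5a1/2 replicate 2, where slope and dhps morpholino coincide, it was 18 (17 higher, 1 lower, 37.1% of all genes). Leaving out 1 library gave 1 to 4 (0.251% to 4.61%). For eif5a1/2 against dhps (1), it was 2 with library totals alone (0.781% of all genes) or the stricter filter (2.2%). DESeq2 gave 6 (4.76%) and the covariate 17 (9.87%). Without those 2 libraries it was 13 (4 higher, 9 lower, 28.8% of all genes). Leaving out 1 library gave 1 to 3 (0.376% to 4.92%). For eif5a1/2 against control (0), it was 4 with the covariate (4.69% of all genes). It was 1 (mybbp1a) without those 2 libraries (1.03%) or among negative-slope libraries (0.817%). The 2 groups alone with the replicate block, added after seeing the data, also gave 1 (mybbp1a, 2.21%). Leaving out 1 library gave 0 in each fit (0.0284% to 0.108%). All genes called in dhps against control numbered 220, 902 with DESeq2, 984 with the covariate, and 44 to 807 with 1 library left out.

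Medians moved beyond the replicate spread with library totals alone, to 0.21 for eif5a1/2 against control, 0.49 for dhps against control and -0.32 for eif5a1/2 against dhps, a scaling that shifts the median of all genes by 0.18, 0.36 and -0.19. They also moved among positive-slope libraries, to 0.29 and -0.31 for the comparisons with dhps, and with the covariate, to 0.28 for dhps against control. Leaving out 1 library gave -0.031 to 0.10 for eif5a1/2 against control, 0.074 to 0.23 for dhps against control and -0.21 to -0.060 for eif5a1/2 against dhps. Signs turned for some named genes. In eif5a1/2 against control, polr1b was 0.18 over all libraries and -0.058 among positive-slope libraries. npm1a was 0.064 over all libraries, -0.046 among positive-slope libraries and -0.0064 without eif5a1/2 replicate 3. polr1c was -0.099 over all libraries and 0.036 with library totals. With 1 library left out polr1c was -0.27 to 0.10, positive without eif5a1/2 replicate 2. In eif5a1/2 against dhps, ncl was -0.31 over all libraries and 0.018 among positive-slope libraries, where eif5a1/2 is 1 library. The cause was not tested. With the replicate number as a block over all 9 libraries, the counts of the 58 genes were 0 for eif5a1/2 against control, 2 for dhps against control and 1 for eif5a1/2 against dhps, and the medians 0.041, 0.12 and -0.12; dhps libraries did not deviate with their control numbers (correlations of -0.337, -0.413 and 0.0988). The spread between 3 libraries a group limits calls: the common coefficient of variation was 0.225.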
